A study of Mus musculus with 6 samples.

Results

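Intraflagellar transport (IFT) and BBSome genes were examined in mouse testes taken at postnatal day 15, as a set of 36 named genes of which 35 were measured among 19938 genes with a named transcript cluster. Membership goes by gene symbol: a row of the deposited table counted when its only gene symbol was that of a member. Each of the 35 genes had exactly 1 such row, a transcript cluster, meaning a set of probes that together read one transcribed region. Arl6 was not analysed here. RNA from 3 knockout testis samples and 3 control testis samples was measured on Affymetrix MoGene-1_0-st-v1 arrays, 1 array per sample. In the labels both groups share tissue and age and differ in genotype, knockout or control. The labels do not state the strain, which cells lost the gene, the further alleles of the controls, or whether the replicates came from separate animals. Each p-value below therefore reflects the spread among the samples as deposited, and that spread may be technical. All levels below are log2 array values and all differences are knockout minus control on that scale.

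IFT carries cargo along the microtubules of cilia and flagella. The IFT-B complex moves outward with kinesin-2 motors, and the IFT-A complex is needed for the return driven by the dynein-2 motor. The BBSome is a coat-like complex that rides on IFT trains and moves membrane proteins out of or into cilia, and chaperonin-like proteins assemble it. In the mouse testis, somatic cells bear primary cilia, and spermatids build a sperm flagellum with the help of IFT proteins. At postnatal day 15 the first wave of germ cells has reached pachytene, before spermatids form.

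Promoter sequences are shown first because many ciliary transport genes are known targets of RFX transcription factors, which bind a palindromic element called the X-box. In these arrays Rfx1 (-0.09), Rfx2 (-0.29) and Rfx4 (-0.55) had separate groups on the lower side, as did 8.6% of all clusters. Rfx3 lay above its control mean (0.06), with overlapping groups. Whether these Rfx values bear on those of the transport genes was not tested. The RefSeq promoter table (GRCm38.p6) held a window for 30 of the 35 members, spanning 250 bases before to 50 bases after the gene start. Windows were searched on both strands for an X-box pattern of 14 bases, GTNNCC followed by NNNGNAAC, and for a half-site of 6 bases, GTTGCC, which can lie inside the longer pattern. The long pattern occurred in 6 of the 30 members (20%), against 2.49% of the 27025 genes in the table. The half-site occurred in 12 of the 30 (40%), against 14.1% of all genes, and 4 members had both. One stretch per gene with the long pattern follows, read 5′ to 3′ on the gene's strand, with the 14 matching bases in capitals, and for Ift22, which had a pair of matches, the one nearer to the gene start.
Bbs7, chr3:36613477-36613530, minus strand: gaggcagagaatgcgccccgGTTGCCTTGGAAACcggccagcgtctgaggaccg
Ift22, chr5:136908097-136908150, plus strand: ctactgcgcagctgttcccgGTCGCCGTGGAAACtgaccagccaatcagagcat
Ttc26, chr6:38381471-38381524, plus strand: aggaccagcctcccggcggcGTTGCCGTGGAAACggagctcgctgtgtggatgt
Ift57, chr16:49699187-49699240, plus strand: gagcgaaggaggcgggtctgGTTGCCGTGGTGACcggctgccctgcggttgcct
Bbs1, chr19:4906593-4906646, minus strand: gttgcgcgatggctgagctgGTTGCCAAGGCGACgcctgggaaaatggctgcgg
Bbs4, chr9:59353459-59353505, minus strand: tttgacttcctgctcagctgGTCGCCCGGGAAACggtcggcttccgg
The capitals of Ift57 and Bbs1 fit the pattern only when read as the reverse complement, because those matches lie on the opposite strand. A match describes the letters of the window and is not evidence of binding.

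Most transport genes read slightly lower in knockout than in control testes, and none passed the test. The knockout mean was the smaller one in 30 of 35 members and the larger one in 5, while 47% of all 21789 clusters tested lay below. The median difference was -0.08 (a median fold of 0.944), against 0.0033 over all genes. In limma with Benjamini-Hochberg adjustment over all clusters, 0 members were called, the smallest adjusted p being 0.322, while 0.0138% of all clusters were called in either direction. With p taken before adjustment, 9 members were lower and 0 higher at the 0.05 level, against 6.45% of all clusters lower and 4.1% higher. The 3 knockout values lay wholly below the 3 control values in 13 members, and wholly above in 0, where 8.6% of all clusters were separate on the lower side and 6.73% on the higher side.

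The differences were small throughout. Their size was under 0.1 in 20 members, at least 0.1 in 15 and at least 0.2 in 4, and all of these 15 were lower in the knockout, where 12.5% of all clusters lay at least 0.1 lower and 3.91% at least 0.2 lower. The 95% interval included 0 in 26 members, and every one of the 35 intervals ended above -0.5, the lowest bound being -0.45 and the highest 0.36. In bulk samples, fewer cells of a type and less RNA per cell cannot be told apart.

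**Figure D1:**
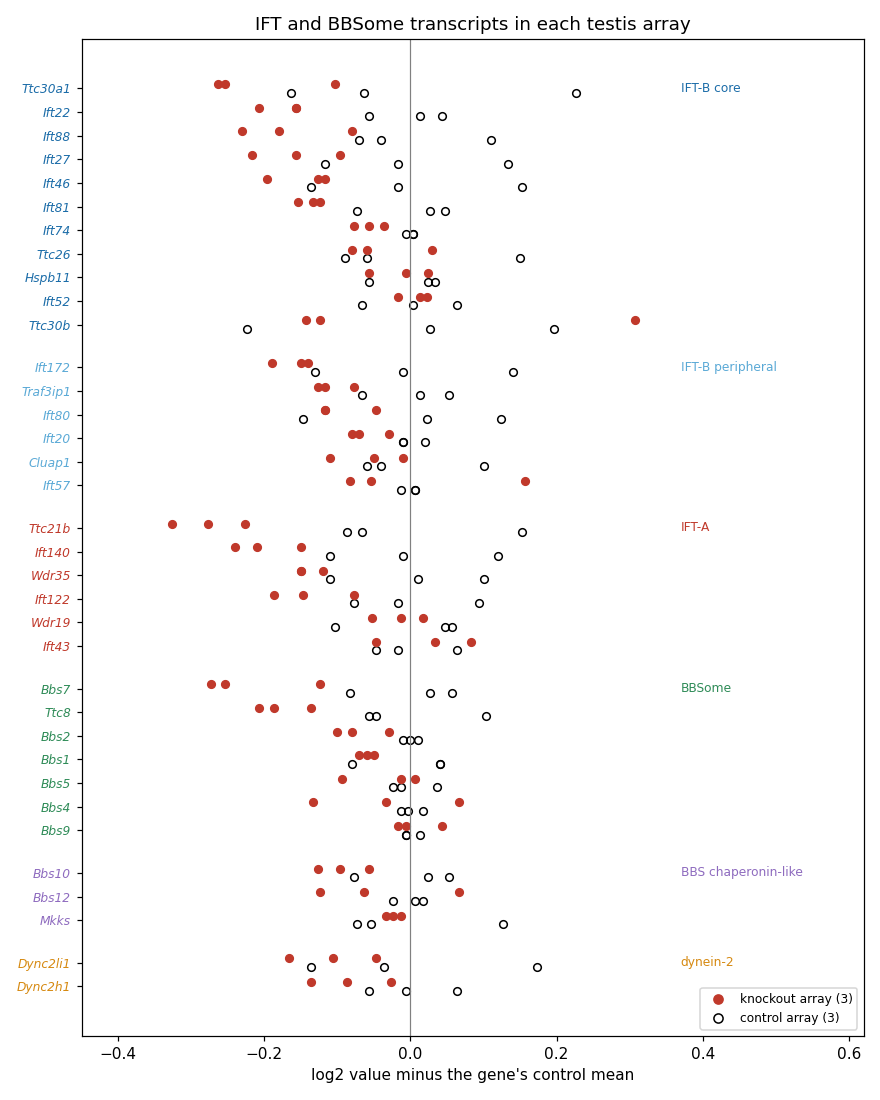
Value of each member in each array, as the log2 value minus that gene's control mean, with filled red points for the 3 knockout arrays and open points for the 3 control arrays, and genes grouped by role. Knockout points lie left of all control points in 13 genes, among them Ttc21b, Bbs7, Ttc8 and Ift22.

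IFT-A, the complex of return transport, held the largest single difference. Ttc21b, which encodes a tetratricopeptide subunit at the edge of IFT-A, read 9.92, 9.97 and 10.02 in the 3 knockout arrays, against 10.16, 10.40 and 10.18 in the 3 control arrays. The groups did not overlap, and control replicate 2 was the highest array. Its difference was -0.28 (SE 0.071, 95% interval -0.44 to -0.11, fold 0.825, unadjusted p = 0.00568, adjusted p = 0.322 in limma). Ift140, a core subunit whose loss in mouse germ cells disturbs flagellum formation, read 10.11, 10.17 and 10.08 in knockout and 10.21, 10.44 and 10.31 in control arrays. The groups again lay apart, by a gap smaller than the range of the controls, with a difference of -0.20 (SE 0.065, adjusted p = 0.380).

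The other IFT-A subunits showed less. Wdr35, a WD-repeat subunit, had values of 10.51, 10.51 and 10.54 in knockout and 10.55, 10.76 and 10.67 in control arrays (difference -0.14, SE 0.059). These groups were separate, but knockout replicate 3 and control replicate 1 were almost equal. Ift122, a core subunit, read 10.20, 10.24 and 10.31 in knockout and 10.31, 10.48 and 10.37 in control arrays (difference -0.14, SE 0.057), so the highest knockout value equalled the lowest control value. Wdr19, another core subunit, differed by -0.02 (SE 0.055) and Ift43, a small subunit, by 0.02, and both had overlapping groups. Over the 6 IFT-A genes the median difference was -0.14, with 4 lower at an unadjusted p under 0.05 (6.45% of all clusters) and 3 separate on the lower side (8.6%).

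The IFT-B core is the part of the outward train that holds the complex together and binds tubulin. Ift22, a Rab-like small GTPase, read 10.43, 10.43 and 10.38 in knockout and 10.53, 10.63 and 10.60 in control arrays. Every knockout array lay below every control array, with little spread in either group (difference -0.17, SE 0.045, 95% interval -0.28 to -0.07, unadjusted p = 0.00568, adjusted p = 0.322). Its promoter carries the long pattern printed above, as do those of Bbs7 (-0.22), Bbs1 (-0.06), Ttc26 (-0.04), Bbs4 (-0.03) and Ift57 (0.0067). Ift81 and Ift74 form a tubulin-binding pair. Ift81 read 9.58, 9.61 and 9.60 in knockout and 9.66, 9.76 and 9.78 in control arrays (difference -0.14, SE 0.046, adjusted p = 0.391). Ift74 read 9.31, 9.33 and 9.35 in knockout and 9.38, 9.39 and 9.39 in control arrays, a smaller difference (-0.06, SE 0.038). Both partners were separate between the groups, Ift74 by very narrow margins.

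Ift88, the subunit mutated in a classic mouse model of polycystic kidneys, read 10.07, 10.12 and 10.22 in knockout and 10.23, 10.41 and 10.26 in control arrays. The groups touched without overlapping (difference -0.16, SE 0.064, adjusted p = 0.438). Ift27, a Rab-like GTPase, read 8.12, 8.18 and 8.24 in knockout and 8.32, 8.47 and 8.22 in control arrays, with overlap between knockout replicate 3 and control replicate 3 (difference -0.16, SE 0.070). Its partner Hspb11, also called IFT25, differed by -0.01, and its groups overlapped. Ift46 read 10.47, 10.48 and 10.40 in knockout and 10.46, 10.75 and 10.58 in control arrays (difference -0.15, SE 0.075). Control replicate 1 lay within the knockout range, and the other two controls lay above it. Ttc26 (difference -0.04) and Ift52, which links parts of the core (0.0067), had overlapping groups.

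The tetratricopeptide genes Ttc30a1 and Ttc30b encode closely similar forms of 1 subunit and lie near each other on mouse chromosome 2, so their probes may read more than 1 copy, which was not tested. Ttc30a1 read 7.66, 7.67 and 7.82 in knockout and 7.76, 8.15 and 7.86 in control arrays (difference -0.21, SE 0.10, adjusted p = 0.527). Ttc30b read 6.47, 6.90 and 6.45 in knockout and 6.37, 6.79 and 6.62 in control arrays (difference 0.01, SE 0.15). Both pairs of groups overlapped, and Ttc30b was the member with the widest spread between replicates. Over the 11 core genes the median difference was -0.14, with 9 below the control mean (47% of all clusters), 3 lower at an unadjusted p under 0.05 (6.45%) and 4 separate on the lower side (8.6%).

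The peripheral IFT-B subunits connect the train to motors and cargo. Ift172, a large subunit that acts where trains turn around at the ciliary tip, read 9.24, 9.25 and 9.20 in knockout and 9.26, 9.53 and 9.38 in control arrays (difference -0.16, SE 0.070, adjusted p = 0.479). Knockout values were nearly equal, and control replicate 1 lay just above them. Traf3ip1, also called IFT54, read 8.02, 8.03 and 8.07 in knockout and 8.08, 8.16 and 8.20 in control arrays (difference -0.11, SE 0.047). Ift20, the subunit that also sits at the Golgi apparatus, read 12.14, 12.15 and 12.19 in knockout and 12.24, 12.21 and 12.21 in control arrays (difference -0.06, SE 0.039). These 3 of the 6 genes had separate groups (8.6% of all clusters on the lower side), and none reached an unadjusted p under 0.05. Ift80 (-0.09), Cluap1, also called IFT38 (-0.06), and Ift57 (0.0067) had overlapping groups. Ift57 read 8.77, 8.98 and 8.74 in knockout and 8.83, 8.83 and 8.81 in control arrays, so knockout replicate 2 alone was high. The median over the 6 peripheral genes was -0.08.

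**Figure D2:**
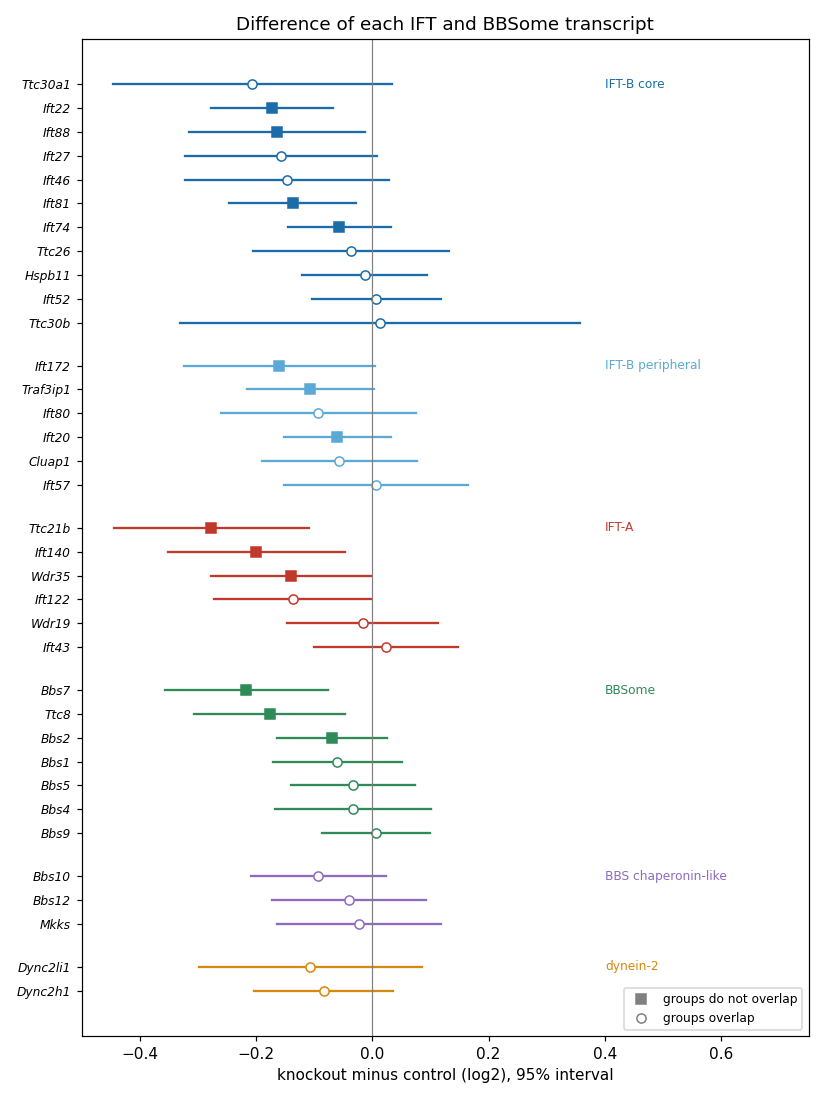
Knockout minus control on the log2 scale for each member, with the 95% interval from limma as a bar, squares where the 3 knockout values lie wholly below the 3 control values and open circles where the groups overlap. The bars of 26 of the 35 genes cross 0, and the points run between -0.28 (Ttc21b) and 0.02 (Ift43).

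Among the BBSome subunits, Bbs7 and Ttc8 stood lowest. Bbs7, a beta-propeller subunit, read 9.55, 9.53 and 9.68 in knockout and 9.72, 9.83 and 9.86 in control arrays. The groups were separate, with knockout replicate 3 closest to the controls (difference -0.22, SE 0.060, 95% interval -0.36 to -0.08, unadjusted p = 0.00803, adjusted p = 0.347). Ttc8, also called BBS8, read 9.30, 9.35 and 9.28 in knockout and 9.44, 9.59 and 9.43 in control arrays, again with no overlap (difference -0.18, SE 0.055, adjusted p = 0.376). Bbs2, which pairs with Bbs7 in the complex, read 10.36, 10.43 and 10.38 in knockout and 10.47, 10.46 and 10.45 in control arrays (difference -0.07). Its groups were apart by the last digits only.

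The remaining BBSome subunits overlapped between the groups. Bbs1, which contacts the membrane-recruiting GTPase, differed by -0.06, Bbs5, a lipid-binding subunit, by -0.03, Bbs4 by -0.03 and Bbs9 by 0.0067. Bbs9 read 11.56, 11.57 and 11.62 in knockout and 11.57, 11.59 and 11.57 in control arrays, with a 95% interval of -0.09 to 0.10. Over the 7 subunits the median difference was -0.06, and 6 lay below the control mean.

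The chaperonin-like genes and the dynein-2 motor had overlapping groups in every case. Bbs10 read 8.77, 8.84 and 8.80 in knockout and 8.82, 8.95 and 8.92 in control arrays (difference -0.09, SE 0.049, adjusted p = 0.551). Bbs12 differed by -0.04 and Mkks, also called BBS6, by -0.02. Dync2h1, the heavy chain of the motor, read 9.58, 9.63 and 9.69 in knockout and 9.66, 9.71 and 9.78 in control arrays (difference -0.08, SE 0.051). Dync2li1, its light intermediate chain, read 8.59, 8.71 and 8.65 in knockout and 8.72, 8.93 and 8.62 in control arrays (difference -0.11, SE 0.081), with control replicate 2 apart from the other arrays.

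The arrays did not contribute equally to this pattern. Control replicate 2 was the highest array for 17 of the 35 genes and lay above the control mean in 27, whereas control replicate 1 did so in 8 and control replicate 3 in 15. Knockout replicate 1 was the lowest array for 16 genes. Values above the control mean were seen in 2, 6 and 5 genes in knockout replicates 1, 2 and 3. The mean over the 35 genes stood at -0.12, -0.07 and -0.09 in the knockout arrays and at -0.05, 0.06 and -0.01 in the control arrays, each relative to the control mean. The knockout arrays thus lay below all control arrays, knockout replicate 2 and control replicate 1 being close. The spread was also unequal, since the 3 knockout values spanned less than the 3 control values in 24 of 35 genes. Such counts were not made over all clusters, so whether they are particular to the members was not tested.

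Leaving out single arrays moved the counts. Without control replicate 1, 15 members were lower at an unadjusted p under 0.05 (6.15% of all clusters) and 21 had separate groups (13.1%). Without control replicate 2 or without knockout replicate 1, 5 members were lower at that threshold (5.08% and 4.41% of all clusters) and 13 had separate groups (13.2% and 12.1%). Control replicate 2 also weighed on single genes. Without it, 7 of the 15 members followed through all settings moved by more than 1.5 times: Dync2li1 to -0.02, Ttc30a1 to -0.09, Ift172 to -0.09, Ift27 to -0.09, Ift122 to -0.09, Wdr35 to -0.09 and Ift88 to -0.11. Without control replicate 3, Dync2li1 was at -0.175. No member was called over all clusters under any of these settings, the smallest adjusted p being 0.197.

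**Figure D3:**
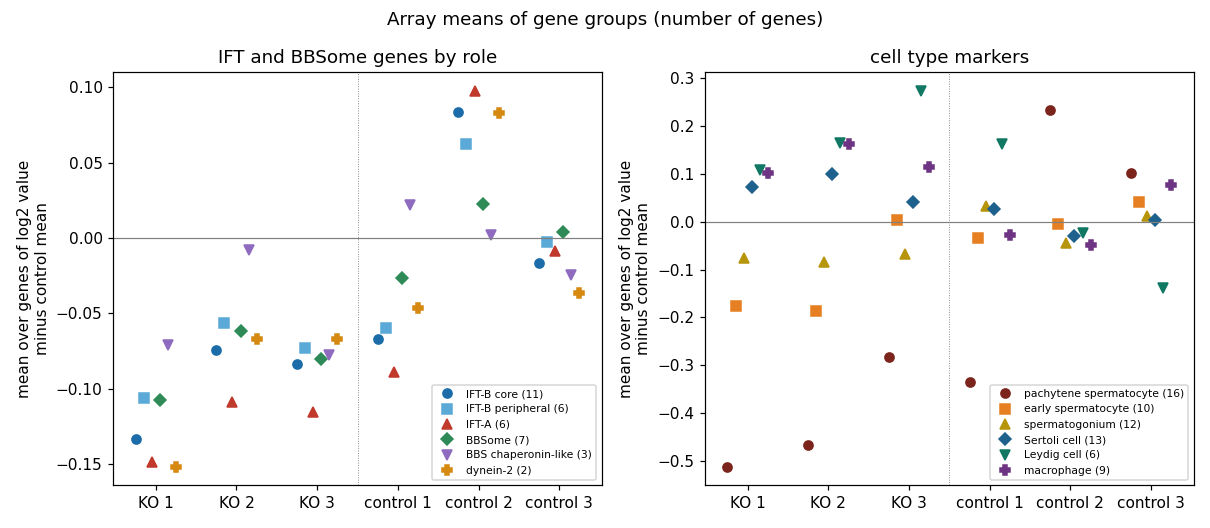
Mean over genes of the log2 value minus the gene's control mean, for each array, with the 3 knockout arrays left of the 3 control arrays, for members by role (left) and for cell type markers (right, on a wider scale), the number of genes in brackets. Control replicate 2 is the highest array for both IFT complexes and for pachytene markers. Control replicate 1 lies near the knockout arrays for IFT-A and the IFT-B core, and within their range for peripheral IFT-B genes and pachytene markers.

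Markers of germ and somatic cells also differed between the same arrays. All 16 pachytene spermatocyte markers had a knockout mean below that of the controls (median difference -0.30). Of these 16 markers, 10 were lower at an unadjusted p under 0.05 in limma (6.45% of all clusters) and 4 were separate on the lower side (8.6%). Their mean level was 9.04 to 9.27 in knockout arrays and 9.22 to 9.79 in control arrays, and relative to the control mean the control arrays stood at -0.34, 0.23 and 0.10. The smallest p-values in that list were those of Ccna1, the meiotic cyclin A1 (-0.27, adjusted p = 0.320), and Tbpl1, a TBP-like transcription factor (-0.19, adjusted p = 0.320). All 10 early spermatocyte markers lay below the control mean (median -0.07; Stag3, a meiotic cohesin, -0.22, and Rec8, another, -0.40), as did 10 of 12 spermatogonial markers (median -0.11; Gfra1, the GDNF receptor, 0.39, and Sall4 -0.30). Their part in the lower transport values was not tested.

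On the somatic side, 12 of 13 Sertoli cell markers lay above the control mean (median 0.07; Kitl, the stem cell factor, 0.28, and Wt1 0.07), with mean levels of 11.52 to 11.58 in knockout and 11.45 to 11.51 in control arrays. Of 6 Leydig cell markers 5 lay above (median 0.28; Nr5a1, a steroidogenic nuclear receptor, 0.18, and Hsd17b3, which makes testosterone, -0.43), and of 9 macrophage markers 9 did (median 0.13; Cx3cr1 0.16 and C1qc 0.16). Peritubular myoid (median -0.02; Des 0.15 and Tagln -0.15) and endothelial markers (median -0.02; Kdr -0.13 and Tek 0.04) were near 0. No marker of these lists was called over all clusters. Of 6 markers of multiciliated efferent duct or epididymis cells, 4 lay below the control mean (median -0.09). In limma 0 of them reached an unadjusted p under 0.05 in either direction, and 0 had separate groups. Tekt1, a microtubule protein of cilia and flagella, read 8.05, 8.09 and 8.30 in knockout and 8.10, 8.74 and 8.58 in control arrays (difference -0.33), and Defb15, a defensin, differed by -0.12. The mean level of this list was 6.33 to 6.47 in knockout and 6.44 to 6.59 in control arrays. Arrays give no true zero, and no marker could be read as absent.

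Other parts of the ciliary machinery were set beside these genes as 9 related lists, 84 genes in all, of which 0 were called over all clusters. The motor list of kinesin-2 had a median of -0.06 over 5 genes. Its subunit Kif3a read 9.52, 9.47 and 9.48 in knockout and 9.67, 9.59 and 9.66 in control arrays (difference -0.15, adjusted p = 0.358), with no overlap. Kif3c, another kinesin-2 motor subunit, had separate groups on the opposite side (0.14). Of the 5 genes, 2 were separate on the lower side (8.6% of all clusters) and 1 on the higher side (6.73%). Further dynein-2 subunits had a median of -0.025 over 8 genes, led by Tctex1d2 (-0.16) and Dynlrb2 (-0.37), both light chains. BBSome partners had a median of -0.05 over 6 genes, with 3 separate on the lower side (8.6% of all clusters). These were Wdpcp, a planar polarity effector (-0.16), Lztfl1, a regulator of BBSome movement (-0.14), and Rab3ip, at only -0.05.

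The transition zone, the gate at the cilium base, had a median of -0.06 over 18 genes, with 14 below the control mean (47% of all clusters), 3 lower at an unadjusted p under 0.05 (6.45%) and 5 separate on the lower side (8.6%). Cep290, a large scaffold of that gate, read 8.82, 8.96 and 9.01 in knockout and 9.21, 9.30 and 9.08 in control arrays (difference -0.27, adjusted p = 0.347), and B9d1 differed by -0.18. In the list of distal appendages and cilium initiation, 8 of 9 genes lay below (median -0.08), among them Ccp110, which caps the mother centriole (-0.25), and Cep164, a docking protein (-0.14). Of the 9 genes, 3 were lower at an unadjusted p under 0.05 (6.45% of all clusters) and 3 were separate on the lower side (8.6%). Cargo adaptors and membrane GTPases were evenly divided by sign, 4 below and 4 above (median -0.02; Pde6d -0.12 and Arl2bp -0.10). In that list 2 genes were lower and 0 higher at an unadjusted p under 0.05 (6.45% of all clusters lower). Separate groups were seen in 2 on the lower side (8.6%) and 0 on the higher side. Hedgehog pathway genes, which act through primary cilia, had a median of 0.03 with 4 of 13 below (Gli3, a transcription factor of the pathway, -0.13, and its co-receptor Boc 0.12).

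Lists tied to germ cells or to the X-box held larger single differences. Among ciliary transcription factors, with a median of -0.06 over 9 genes, Rfx2, an X-box factor needed for mouse spermiogenesis, read 9.38, 9.41 and 9.32 in knockout and 9.49, 9.83 and 9.66 in control arrays (difference -0.29, SE 0.084, adjusted p = 0.359). Rfx4, another member of that family, read 7.72, 7.61 and 7.64 in knockout and 7.85, 8.58 and 8.20 in control arrays (difference -0.55, SE 0.16, adjusted p = 0.360). In both genes the groups were separate and control replicate 1 was the nearest control. Over the 9 genes, 4 were separate on the lower side (8.6% of all clusters), while Rfx3 lay above its control mean (0.06). Of the sperm flagellum and manchette list, 7 of 8 genes lay below (median -0.09), with Spag16, a protein of the central apparatus (-0.68, adjusted p = 0.320), and Ccdc42 (-0.43, adjusted p = 0.322) having the smallest p-values.

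Members with and without the promoter patterns were compared as a description, a grouping made after the values were known. The 6 genes with the long pattern had a median difference of -0.05 and ran from -0.22 (Bbs7) to 0.0067 (Ift57). The 8 genes with the half-site alone, Bbs5, Dync2h1, Ift140, Ift172, Ift27, Ift88, Traf3ip1 and Wdr35, had a median of -0.15. All 8 lay below the control mean, as did 5 of the 6 with the long pattern and 13 of the 16 with neither. Over all clusters 47% lay below, and 12.9% of all genes in the promoter table had the half-site alone. The 16 genes with neither pattern had a median of -0.06 and ran from -0.28 (Ttc21b) to 0.02 (Ift43). These ranges overlapped, and the difference between the sets of genes was not tested.

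**Figure D4:**
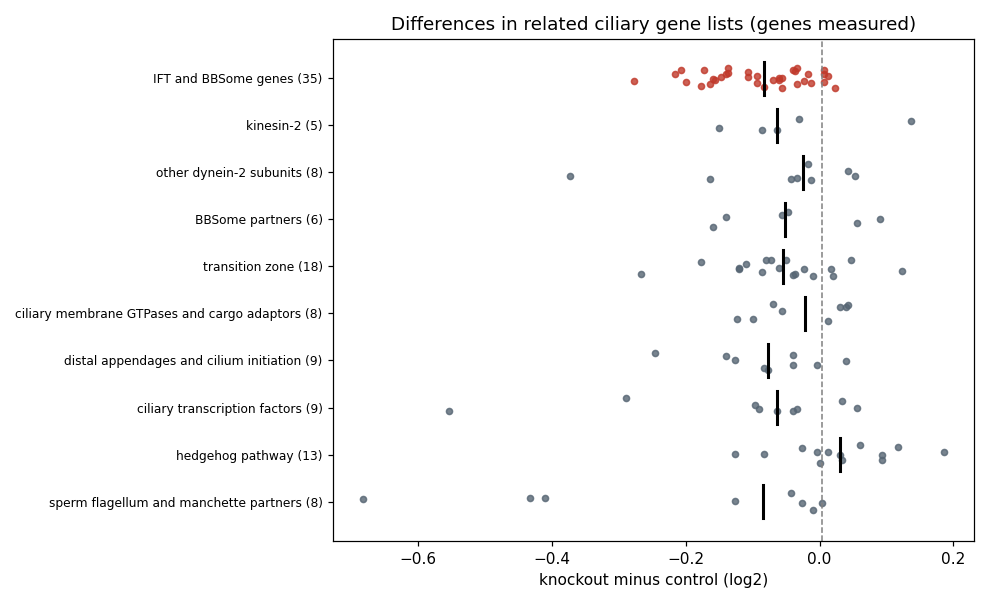
Knockout minus control on the log2 scale for each gene of the IFT and BBSome set (red) and of the 9 related ciliary lists (grey), with the list median as a black bar, the number of genes in brackets and the median of all genes as a dashed line at 0.0033. Most medians lie between -0.09 and -0.02, and the hedgehog list lies at 0.03.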

How the data were processed

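The deposited values are log2 RMA values per transcript cluster of 6 Affymetrix MoGene-1_0-st-v1 arrays, made by the authors with Affymetrix Expression Console, per the submitters' processing notes. RMA corrects background, gives the probe values of all arrays 1 distribution and then summarises the probes of each cluster. A shift shared by all transcripts would therefore not show, and differences of dim clusters are compressed. Tool versions, the probe annotation and the build of the array design: not given in the sources used here. Neither scanner files nor detection calls were used, so batches are unknown and the number of arrays limits the precision.

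Clusters were named from the platform annotation. Of 35556 clusters, 21789 with a single symbol were tested; the 1621 with several symbols and the 12146 without a name were left out. All 35 member clusters matched the RefSeq gene table by gene identifier. The fit used limma 3.58.1 in R 4.3.3 (lmFit, eBayes, no covariates, 4 residual and 3.24 prior degrees of freedom, adjusted p threshold 0.05), and its code was tested on simulated data. A gene with several clusters was represented by the one with the highest mean. Lists were described by counts and medians, without a set test. All members could be named; values in every array were given first for the 12 with the smallest p and the largest difference in each role, and for related and marker lists the 2 genes with the smallest p. Members and lists were chosen with earlier results of these data known. A planned protein comparison of Ttc30a1 and Ttc30b was not made. The targeted gene itself is not reported here, so the labels' genotypes stand unchecked by array values. No array was a copy of another (at most 4.12% identical values).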

Additional observations from a re-analysis of the deposited data

How the results depend on the processing

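Of the 15 members with the smallest p-values or the largest difference in their role, all 210 values under 14 alternative settings kept their sign, though 7 of the 15 moved by more than 1.5 times without control replicate 2 and 1 without control replicate 3, and none passed an adjusted p of 0.05 (smallest 0.154). The count of 0 members called was the same in each setting. The median difference of the members was -0.11 to -0.06 when single arrays were left out and -0.09 to -0.07 otherwise, and 28 to 33 members lay below the control mean. Members lower at an unadjusted p under 0.05 numbered 5 to 15 when single arrays were left out and 6 to 11 otherwise, 6 being the count with all clusters of the table tested, and those with separate groups 13 to 21 and 10 to 14, against 9 and 13 as reported. Of all clusters, 3 were called; the count was 0 with the replicate block and with all clusters of the table tested, 1 by least squares without moderation, 7 with an intensity trend and robust prior, and 0 to 52 when single arrays were left out, 52 being the count without control replicate 1. The labels number replicates 1 to 3 in both genotypes. Deviations from the group mean correlated at 0.17, -0.05 and 0.17 for same-numbered arrays and at -0.23 to 0.08 for differently numbered ones. These values do not settle whether the numbers pair the samples, and the main fit did not pair them. With the replicate block 8 members were lower at an unadjusted p under 0.05, against 9 in the main fit. Averaging several clusters of a gene left each member as it was, since every member had 1. The causes of these shifts were not tested.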
